A study of Mus musculus and Rattus norvegicus with 53 samples.

Results

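The genes described here are 7 transcription factors of the epithelial-mesenchymal transition (EMT), Snai1, Snai2, Zeb1, Zeb2, Twist1, Twist2 and Prrx1, and the 2 members of the HMGA family of chromatin proteins, Hmga1 and Hmga2. They were taken by gene symbol, which gave 9 of the 24016 genes listed in the mouse count files. All 9 had enough reads to be tested in the pooled nerves. The single nerves allowed a test of 8, because Hmga1 did not reach the minimum count there.

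The libraries came from Schwann cells (SCs) of adult mice, male and female, aged 6 to 8 weeks, whose SCs carry tdTomato because a Cre driven by the promoter of an SC gene opened a Rosa26 tdTomato reporter. One sciatic nerve was cut, the uninjured nerve of the other side served as control, and tdTomato+ cells were sorted by FACS and sequenced after Smart-seq2 amplification. Pooled libraries held the nerves of 3 mice each and were made from intact nerves (iSCs), the distal stump at day 6 (dSCs) and the nerve bridge at day 6 (bSCs), with 4 libraries of each. Single-nerve libraries, 35 in all, were made from 5 intact nerves, from the distal stump on 6 days (day 1, day 2 and then every other day from 4 to 10), and from the bridge on the last 4 of these days, with 3 libraries at each. The study's own analysis used 4 intact single nerves after leaving out datasets with few detected genes. Every group carries the same reporter, the contralateral nerve of an operated animal is not the nerve of an unoperated one, and a cell of another type that had recombined the reporter would also be sorted.

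EMT is the programme by which cells of an epithelium loosen their contacts and become migratory. The SNAI and ZEB zinc finger proteins and the TWIST helix-loop-helix proteins bind E-box sequences and are best known for silencing E-cadherin, while PRRX1 is a homeobox protein of mesenchymal tissues. In SCs, ZEB2 has a further role, since it recruits co-repressors to switch off inhibitors of differentiation and is needed for myelination and remyelination. HMGA proteins are small chromatin proteins that hold the minor groove of AT-rich DNA with short AT-hook motifs. HMGA2 is known from embryonic and dividing cells and is a classic target of the let-7 microRNAs.

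The sequence that gives the HMGA family its name is shown because it is also where the reads of these genes are hard to place. Each line holds 60 bases of coding sequence around 1 AT-hook, read from the mouse build NCBIM37 (mm9), with the codons of the hook's core residues in capitals. The Hmga1 stretch lies in exon 3 at chr17:27697885-27697944 on the plus strand, and that of Hmga2 in exon 2 at chr10:119910326-119910385 on the minus strand.
Hmga1: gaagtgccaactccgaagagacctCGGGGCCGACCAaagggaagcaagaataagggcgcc
Hmga2: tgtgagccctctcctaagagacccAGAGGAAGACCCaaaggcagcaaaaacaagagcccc
Hmga1 and Hmga2 share 41 of the 60 bases. Of the windows of 50 bases along the Hmga1 transcript, 67.7% had an exact match elsewhere in the genome. For Hmga2 the share was 26.4%, and a copy on chromosome 1 held runs of up to 221 bases. The share was 2.73% for Snai2, 1.15% for Snai1, 0.587% for Prrx1 and 0.139% for Zeb1, and no window of Zeb2, Twist1 or Twist2 matched elsewhere. HTSeq sets aside reads that align to more than 1 place, so the Hmga1 values below are an incomplete count of that gene and its level relative to the others is uncertain. Hmga2-ps1, a transcribed Hmga2 pseudogene that RefSeq also puts on chromosome 1, had between 1.47 and 38.7 CPM in the pooled libraries.

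Values are CPM, read counts scaled to the library's total and its TMM factor, and a difference counted as called when its adjusted p in edgeR's quasi-likelihood test was under 0.05. Counts on genes lay between 11435463 and 22617054 per pooled library and between 9240883 and 22426128 per single-nerve library, so that a count of 0 allows up to 0.134 to 0.258 CPM in the former and 0.13 to 0.579 CPM in the latter (3 counts, counting error only). A pair of single-nerve libraries, the dSC and bSC libraries of replicate 1 at day 4, both labelled animal 19, had nearly the same counts. Their chi-square per degree of freedom was 3.96, against 47.9 for the next closest of 1081 pairs, so that they are not independent measures of 2 regions and values are given with and without them. Sox10, the lineage factor of SCs, was at 219.6 to 421.7 CPM in pooled iSCs, 69.0 to 181.6 in dSCs and 62.9 to 218.5 in bSCs. In the single nerves Sox10 went down to 6.85 CPM in dSCs at day 1 and 7.77 CPM in bSCs at day 4. S100b, another SC marker, was at 158.6 to 229.9 CPM in pooled iSCs, 61.9 to 95.3 in dSCs and 2.70 to 56.6 in bSCs. Of 10 SC markers, 5 fell and 1 rose in pooled dSCs, and 6 fell and 1 rose in pooled bSCs, against iSCs. They summed to 5105 to 12165 CPM in pooled iSCs, 1448 to 3350 in dSCs and 1333 to 2692 in bSCs. Markers of other cells were also present. The 15 fibroblast markers summed to 14632 to 72443 CPM over the pooled libraries and the 15 leukocyte markers to 263 to 18084 CPM. No marker of either list was at 0 throughout a pooled group. In sorted bulk cells, fewer cells of a type and less RNA per cell cannot be told apart.

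Expressed per kilobase of merged exons, so that genes can be compared, the mean level in pooled iSCs was highest for Zeb2, at 14.6 CPM per kilobase, followed by Snai2 (8.50), Prrx1 (7.42), Zeb1 (4.87), Snai1 (4.54), Twist2 (4.02), Twist1 (1.45), Hmga2 (0.331) and Hmga1 (0.0551). The ranges of the 4 libraries overlapped between each gene and the next in this order. In dSCs Snai2 (17.1 CPM per kilobase) and Zeb2 (15.7) led, Zeb1 and Snai1 followed at 10.5 and 10.4, and Hmga2 reached 3.72. In bSCs Snai2 (8.87) and Zeb2 (8.53) again led and Hmga2, at 2.88, lay above Twist2 (1.94) and Twist1 (1.43). These levels between genes are descriptive and were not tested.

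None of the 9 genes was called in any of the 3 comparisons of the pooled nerves. Over all 13751 genes tested the called share was 5.32% between dSCs and iSCs, 14.7% between bSCs and iSCs, and 5.43% between bSCs and dSCs. With pools from the same animals treated as a block, which called 2.09%, 7.04% and 1.72% of genes in the same order, no member was called either. The fitted log2 fold change of dSCs against iSCs was above 0 for 9 of 9 members, with a median of 1.103, while it was above 0 for 48.9% of all genes, whose median was -0.02. For bSCs against iSCs it was above 0 for 6 of 9, with a median of 0.06, beside 45.2% of all genes and a median of -0.16. Between bSCs and dSCs only Hmga1 of the 9 had a value above 0, beside 46.9% of all genes. The median there was -0.47, and that of all genes was -0.07. All 3 comparisons share libraries, so their signs are not separate evidence.

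**Figure D1:**
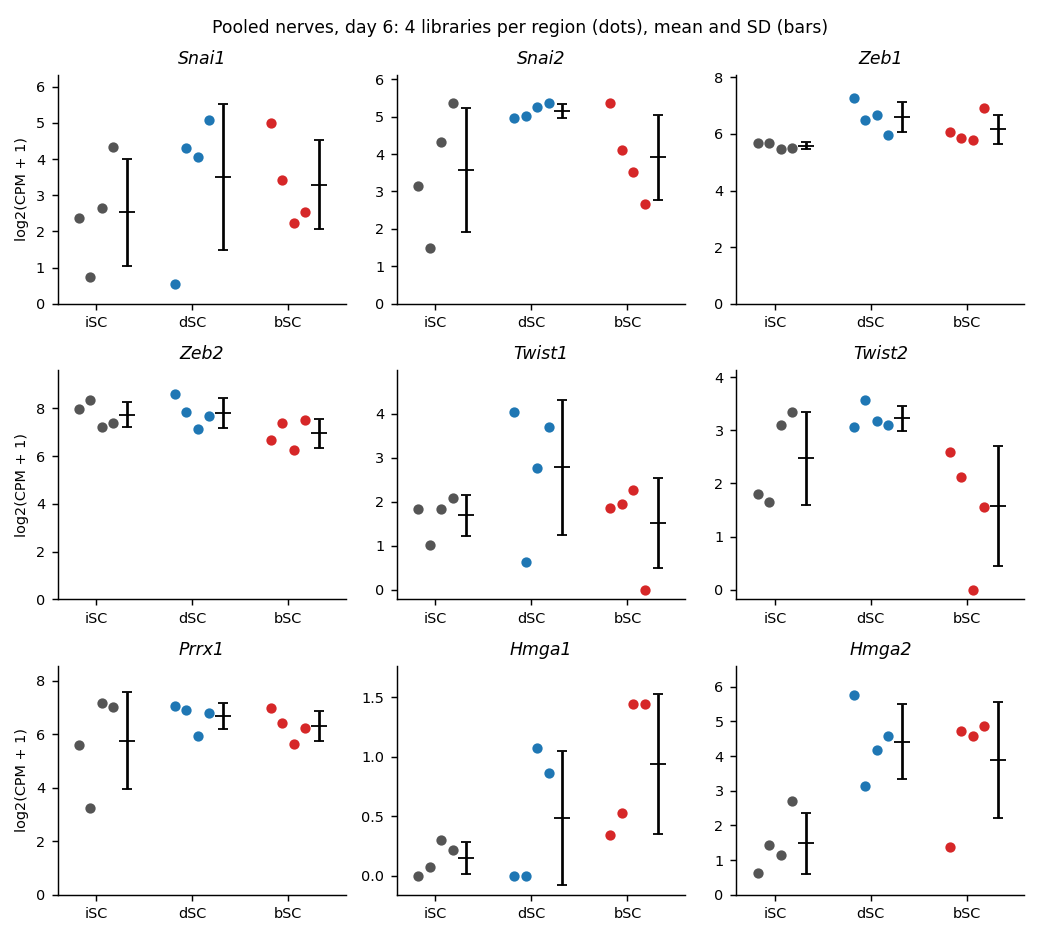
Levels of the 9 genes in the pooled nerves, as log2(CPM + 1) on the vertical axis, for iSCs, dSCs and bSCs on the horizontal axis; dots are libraries, and the bars give the mean and SD of 4. Hmga2 and Zeb1 of all 4 dSC libraries lie above all 4 iSC libraries, and Twist2 of all bSC libraries lies below all dSC libraries.

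Hmga2 had the largest fitted difference of the members between dSCs and iSCs. Its level was 0.545, 1.73, 1.21 and 5.48 CPM in the iSC libraries of pools 1, 2, 4 and 5. It was 52.8, 7.86, 17.04 and 23.02 CPM in the dSC libraries of pools 1, 2, 3 and 5, and 1.61, 25.4, 22.8 and 28.2 CPM in the bSC libraries of the same pools. The dSC libraries all lay above the iSC libraries, and of the bSC libraries 3 did, pool 1 being within the intact range. The means were 2.24 ± 2.21 CPM in iSCs, 25.2 ± 19.4 in dSCs and 19.5 ± 12.1 in bSCs (SD, n = 4 each).

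The log2 fold change of Hmga2 was 3.49 ± 1.01 (SE) for dSCs against iSCs, with a 95% interval from 1.30 to 5.67 and an adjusted p of 0.0668, and 3.12 ± 1.00 for bSCs against iSCs, from 0.97 to 5.27, with an adjusted p of 0.0519. Both missed the threshold narrowly and the call depended on the test. DESeq2 called both, with adjusted p = 0.0021 and 0.00485, in comparisons where it called 1393 of 13751 genes and 22.6% of them. edgeR called dSCs against iSCs when only these groups were fitted (adjusted p = 0.0446, 6.64% of all genes called). Without iSC library 5, the intact library with the most Hmga2, the log2 fold changes were 4.44 and 4.07 and both were called (adjusted p = 0.0299 and 0.0254). Without bSC library 1 the difference of bSCs from iSCs was 3.525 (adjusted p = 0.0175). With pools as a block the adjusted p values were 0.287 and 0.207. Between bSCs and dSCs the difference was -0.37 ± 0.92, with an interval from -2.35 to 1.61. Hmga2-ps1, whose reads may be shared with Hmga2, differed by 0.74 ± 0.79 in dSCs and by 0.29 ± 0.78 in bSCs from iSCs, and neither was called (adjusted p = 0.777 and 0.86).

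Hmga1 was scarcely counted. The libraries of iSCs held 0, 1, 3 and 2 counts, those of dSCs 0, 0, 15 and 11, and those of bSCs 6, 6, 20 and 37. All bSC libraries lay above all iSC libraries, at a mean of 1.04 ± 0.79 CPM against 0.11 ± 0.10 CPM (SD, n = 4). Complete separation in that direction was seen for 10.5% of all genes tested. The log2 fold change of 3.16 ± 1.78 had an interval from -0.67 to 6.99 and was not called (adjusted p = 0.276), an interval that holds both a large rise and no change.

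Zeb1 was the most even of the transcription factors in intact nerves, at 50.7, 50.5, 43.6 and 44.2 CPM. It was measured at 154, 88.9, 102 and 61.8 CPM in dSCs and at 65.5, 57.4, 54.7 and 120.6 CPM in bSCs. Every library of either injured region lay above every iSC library. With Hmga2, Zeb1 made 2 of 9 members whose dSC libraries were all higher than iSCs, which held for 7.56% of all genes, and with Hmga1 it made 2 of 9 for bSCs. The log2 fold change was 1.103 ± 0.33 for dSCs against iSCs (95% interval 0.39 to 1.82, adjusted p = 0.0769) and 0.66 ± 0.33 for bSCs against iSCs (-0.05 to 1.37, adjusted p = 0.212). DESeq2 called the former (adjusted p = 0.0242) and edgeR did not call it in any fit that left out 1 library, with adjusted p between 0.0671 and 0.219. Between bSCs and dSCs Zeb1 differed by -0.45 ± 0.33 (interval -1.15 to 0.26).

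Zeb2 was the most abundant member in counts, at 253, 327, 149 and 169 CPM in iSCs, 392, 228, 140 and 202 CPM in dSCs and 100, 165, 75.4 and 183 CPM in bSCs. The groups overlapped, with bSCs lowest on average (131 ± 51.5 CPM, against 224.5 ± 81.7 in iSCs and 241 ± 108 in dSCs). The log2 fold change was 0.10 ± 0.38 for dSCs against iSCs. It was -0.78 ± 0.38 for bSCs against iSCs (interval -1.59 to 0.04, adjusted p = 0.199) and -0.88 ± 0.38 for bSCs against dSCs (interval -1.69 to -0.06, adjusted p = 0.194). A lane covariate, which marked whether a library was deposited as 1 or 2 lane files, gave -1.003 for bSCs against iSCs. This was called (adjusted p = 0.027), in a fit that called 14.6% of all genes and no other member. The antisense gene Zeb2os overlaps Zeb2 and the library protocol keeps no strand, so that reads from the shared stretch cannot be assigned by strand. Zeb2os had 3.05 to 11.4 CPM of its own in the pooled libraries. Macrophages are also known to express Zeb2, and the leukocyte marker sum had a median of 1020 CPM in iSCs, 14150 in dSCs and 5214 in bSCs. Its part in the Zeb2 values was not tested.

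Snai1 and Snai2 varied within groups as widely as between them. Snai2, which also marks the migrating neural crest, ranged from 1.83 to 40.5 CPM in iSCs and from 5.31 to 40.1 CPM in bSCs, but only from 30.3 to 39.9 CPM in dSCs. Its log2 fold change was 1.01 ± 0.80 for dSCs against iSCs, 0.06 ± 0.80 for bSCs against iSCs and -0.95 ± 0.80 for bSCs against dSCs. Snai1 spanned 0.66 to 19.2 CPM in iSCs, 0.459 to 32.7 CPM in dSCs and 3.69 to 30.7 CPM in bSCs. Its differences were 1.203 ± 1.17, 0.73 ± 1.16 and -0.47 ± 1.16 in the same order. The intervals of both genes spanned 0, and the SE of each Snai1 difference exceeded 1 on the log2 scale.

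The TWIST genes were low. Twist1 had 1.02 to 3.22 CPM in iSCs, 0.537 to 15.4 in dSCs and 0 to 3.78 in bSCs, with log2 fold changes of 1.84 ± 1.41, -0.03 ± 1.36 and -1.87 ± 1.41 for dSCs against iSCs, bSCs against iSCs and bSCs against dSCs. Twist2 had 2.49, 2.13, 7.57 and 9.18 CPM in iSCs, 7.34, 10.9, 8.04 and 7.53 CPM in dSCs and 5.02, 3.36, 0 and 1.96 CPM in bSCs. All bSC libraries lay below all dSC libraries, as did those of 8.62% of all genes. The difference of -1.71 ± 1.23 was not called (interval -4.36 to 0.94, adjusted p = 0.473).

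Prrx1 stood at 47.5, 8.59, 143 and 130 CPM in iSCs, 132, 121, 61.2 and 109 CPM in dSCs and 126, 84.5, 49.0 and 75.0 CPM in bSCs. Its log2 fold changes were within 1 SE of 0 in all 3 comparisons, at 0.37 ± 0.61, 0.03 ± 0.61 and -0.34 ± 0.61. The spread in iSCs followed the order of the fibroblast marker sum except for its top 2 libraries. The iSC library of pool 2, with the least Prrx1, had the lowest fibroblast sum of iSCs (15332 CPM) and also the least Snai2 and Snai1, whereas those of pools 4 and 5 had sums of 48005 and 72443 CPM. Between other groups the fibroblast sum and Prrx1 did not always move together. In single-nerve dSCs the fibroblast sum was 22180 to 30510 CPM at day 4 and 31994 to 47790 CPM at day 8. Prrx1 there was at 122 to 239 CPM and at 55.8 to 113.5 CPM. In single-nerve bSCs both were lower at day 10 (sum 15468 to 19455 CPM, Prrx1 39.8 to 77.6 CPM) than at day 8 (23251 to 46653 CPM and 125 to 168 CPM). Prrx1, Twist2 and Snai2 are known in fibroblasts, of whose 15 markers 4 were lower in bSCs than in dSCs and 4 lower than in iSCs. The part of such cells in the values was not tested.

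**Figure D2:**
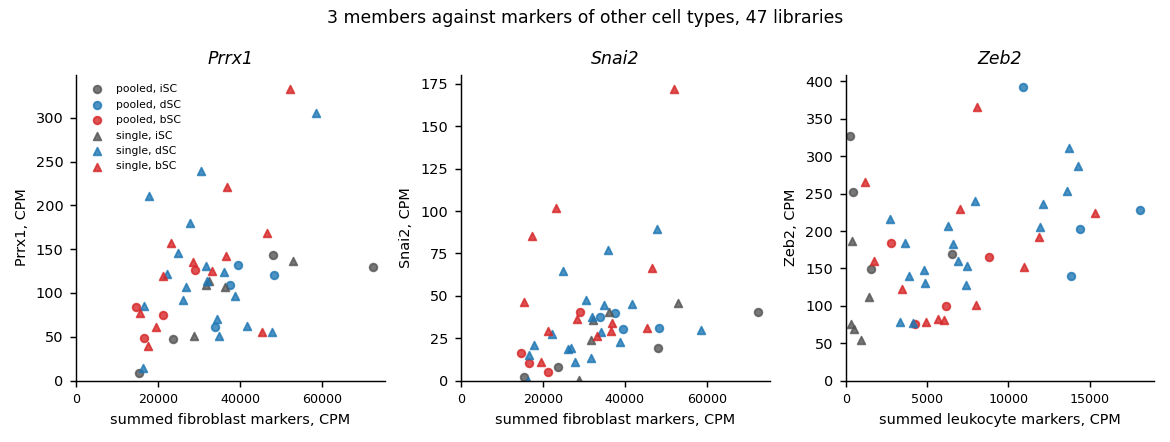
Level of Prrx1, Snai2 and Zeb2 (CPM, vertical axes) against the summed level of markers of fibroblasts or leukocytes (CPM, horizontal axes) in the 47 libraries; circles are pooled and triangles single-nerve libraries, grey iSCs, blue dSCs and red bSCs. In pooled iSCs, Prrx1 was at 8.59 CPM in the library with the lowest fibroblast sum and at 130 CPM in that with the highest. In single-nerve dSCs it was at 122 to 239 CPM at day 4 and at 55.8 to 113.5 CPM at day 8, where the fibroblast sum was higher.

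None of the 8 genes tested in the single nerves was called either, whether between dSCs and iSCs at days 1 and 2 (0.677% of 15519 genes called), between dSCs and iSCs over days 4 to 10 (5.32%), between bSCs and iSCs over days 4 to 10 (9.34%) or between bSCs and dSCs over days 4 to 10 (0.103%). Differences among the 6 days in dSCs (0.0644% of genes called) and a dependence of bSCs against dSCs on the day (0% of genes called by edgeR, with 488 at an unadjusted p under 0.05 and 6 by DESeq2) were not called for a member. The lowest unadjusted p among members in those last 2 tests was 0.0388, for Prrx1 among days (adjusted p = 0.7).

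**Figure D3:**
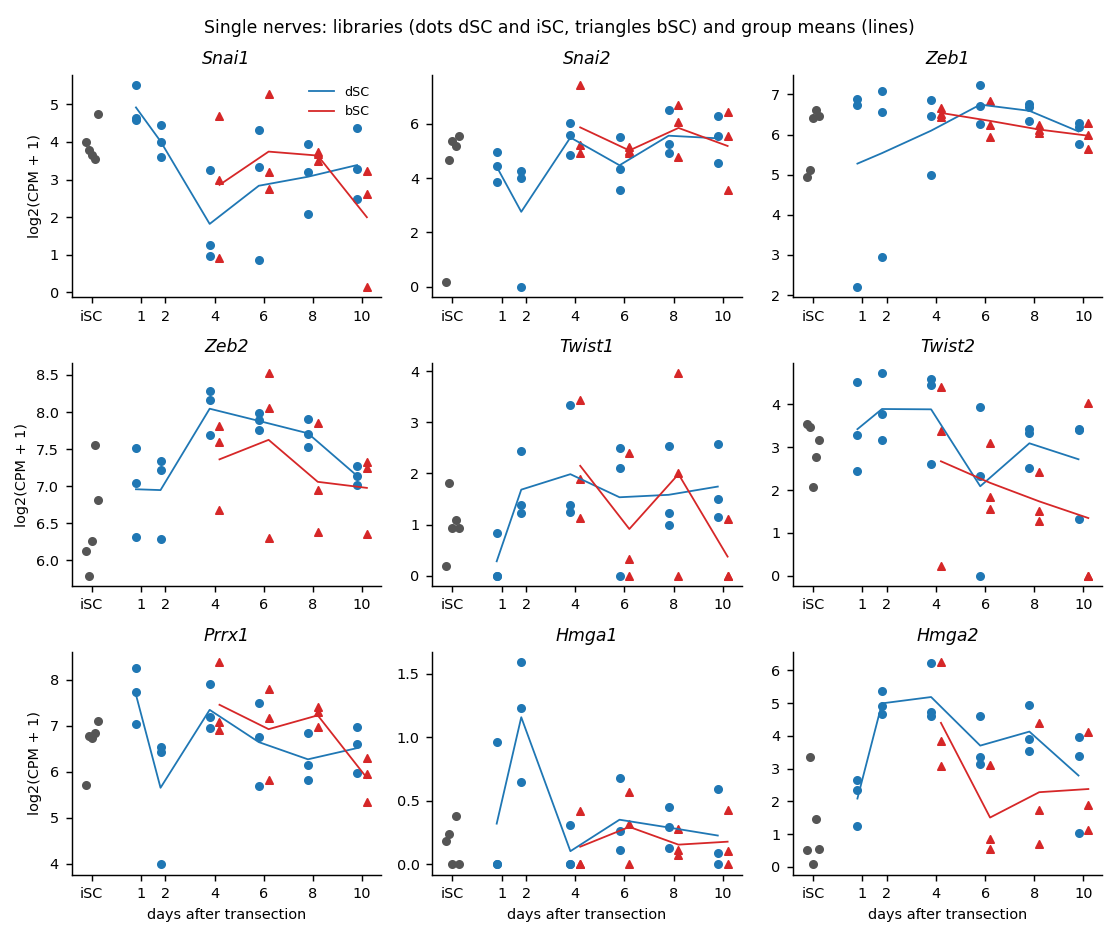
Levels of the 9 genes in the single nerves, as log2(CPM + 1) on the vertical axis, against days after transection; grey dots are iSCs, blue dots dSCs and red triangles bSCs, 1 per library, and lines join the group means on this scale. Hmga2 of dSCs was at most 5.27 CPM at day 1 and at least 24.5 CPM at day 2.

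Hmga2 in intact single nerves was at 0.418, 9.32, 0.0528, 1.78 and 0.459 CPM. In dSCs it was between 1.39 and 5.27 CPM at day 1, 24.5 and 40.7 at day 2, 23.6 and 73.2 at day 4, 7.79 and 23.5 at day 6, 10.5 and 29.9 at day 8, and 1.03 and 14.6 at day 10. All 3 dSC libraries lay above all 5 iSC libraries at days 2, 4 and 8, a separation seen for 4.07%, 6.90% and 6.13% of all genes. In bSCs it was between 7.52 and 75.0 CPM at day 4, 0.45 and 7.72 at day 6, 0.632 and 19.98 at day 8, and 1.17 and 16.3 at day 10, and overlapped iSCs on every day. The highest values of day 4, 73.2 and 75.0 CPM, were those of the near-identical libraries of animal 19, and without them that day ranged from 23.58 to 25.45 CPM in dSCs and from 7.52 to 13.45 CPM in bSCs.

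Averaged over days 4 to 10, the log2 fold change of Hmga2 was 2.85 ± 1.06 for dSCs against iSCs (95% interval 0.69 to 5.00, adjusted p = 0.108) and 1.83 ± 0.99 for bSCs against iSCs (-0.20 to 3.85, adjusted p = 0.272). DESeq2 called the former (adjusted p = 0.00908), where it called 10.6% of genes. Without the intact library of replicate 1, which held the 9.32 CPM, the differences were 4.65 and 3.60 and edgeR called both (adjusted p = 0.0296 and 0.0467). That library had 9240883 counts on genes and 10042 genes detected, the fewest of the single-nerve libraries, where up to 15815 genes were detected. For days 1 and 2 the difference was 2.17 ± 1.08 (-0.04 to 4.38, adjusted p = 0.512), and 3.96 without that library (adjusted p = 0.14). Without the near-identical day-4 libraries the differences over days 4 to 10 were 2.72 and 1.43.

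Zeb2 had the lowest adjusted p of the 8 members in the 4 single-nerve contrasts, at 0.0635 for dSCs against iSCs over days 4 to 10. Intact nerves held 69.2, 54.5, 75.8, 187 and 111 CPM. In dSCs the level was 205 to 310 CPM at day 4 and 216 to 253 at day 6, all above the intact libraries, then 184 to 240 at day 8 and 128 to 153 at day 10. At days 1 and 2 it was 77.5 to 183 CPM. Separation upwards at days 4 and 6 was seen for 6.90% and 5.73% of all genes.

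The log2 fold change of Zeb2 in dSCs over days 4 to 10 was 1.06 ± 0.34 (interval 0.36 to 1.76), DESeq2 called it (adjusted p = 0.02), edgeR called it in a fit of only these groups (adjusted p = 0.0418, 4.64% of all genes called) and also without the intact library of replicate 4, which held the most Zeb2 (1.46, adjusted p = 0.0239). In bSCs the difference was 0.74 ± 0.34 (0.05 to 1.43, adjusted p = 0.171). Without the near-identical libraries these values were 1.15 (adjusted p = 0.0711) and 0.74. In the same comparison 11 of 15 leukocyte markers rose, and their sum was 322 to 1414 CPM in iSCs, 11970 to 14264 CPM in dSCs at day 4 and 3910 to 7423 CPM at day 10. The pooled dSC libraries, with leukocyte sums of 10878 CPM and above, differed in Zeb2 from pooled iSCs, with sums of 263 to 6503 CPM, by 0.10 ± 0.38. The part of leukocytes in the Zeb2 values was not tested in either experiment. Pooled iSCs, at 149 to 327 CPM, lay higher than 4 of the 5 single intact nerves, a difference between experiments that was not tested.

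For the other members the libraries of single days scattered widely. Zeb1 was at 29.6 to 96.2 CPM in iSCs. In dSCs, 1 library of day 1 was at 3.61 CPM and 1 of day 2 at 6.75 CPM, with 11138 and 10306 genes detected. The others of those days were at 94.1 CPM or more, with 14352 or more genes detected. The log2 fold change of Zeb1 over days 4 to 10 was 0.38 ± 0.50 in dSCs and 0.19 ± 0.49 in bSCs. Snai1 was at 10.6 to 25.8 CPM in iSCs and at 23.1 to 45.0 CPM in dSCs at day 1. At day 4 all 3 dSC libraries (0.949 to 8.48 CPM) lay below iSCs, as did all 3 bSC libraries at day 10 (0.107 to 8.42 CPM), a separation seen for 3.60% and 2.75% of all genes. Over days 4 to 10 Snai1 differed by -1.0 ± 0.73 in dSCs (adjusted p = 0.489) and by -0.61 ± 0.74 in bSCs (adjusted p = 0.701).

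Snai2 was at 0.14 to 46.0 CPM in iSCs and reached 172 CPM in 1 bSC library of day 4. Its differences over days 4 to 10 were 0.50 ± 0.72 in dSCs and 0.85 ± 0.74 in bSCs. Prrx1 was at 51.3 to 137 CPM in iSCs and at 131 to 306 CPM in dSCs at day 1, had a mean of 64.2 ± 42.8 CPM at day 2 (SD, n = 3), and differed from iSCs over days 4 to 10 by 0.08 ± 0.38 in dSCs and 0.27 ± 0.38 in bSCs. Twist1, at 0.14 to 2.51 CPM in iSCs, and Twist2, at 3.17 to 10.6 CPM, had SEs above 1 in these contrasts. Twist2 in bSCs differed by -0.65 ± 1.04, and by -2.90 with a call (adjusted p = 0.042) when the bSC library of day 10 replicate 3, the only one of its day with reads of Twist2, was left out. Hmga1 had between 0 and 45 counts in the single-nerve libraries, with 0.572 to 2.02 CPM in dSCs at day 2 and at most 0.95 CPM in every other library.

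**Figure D4:**
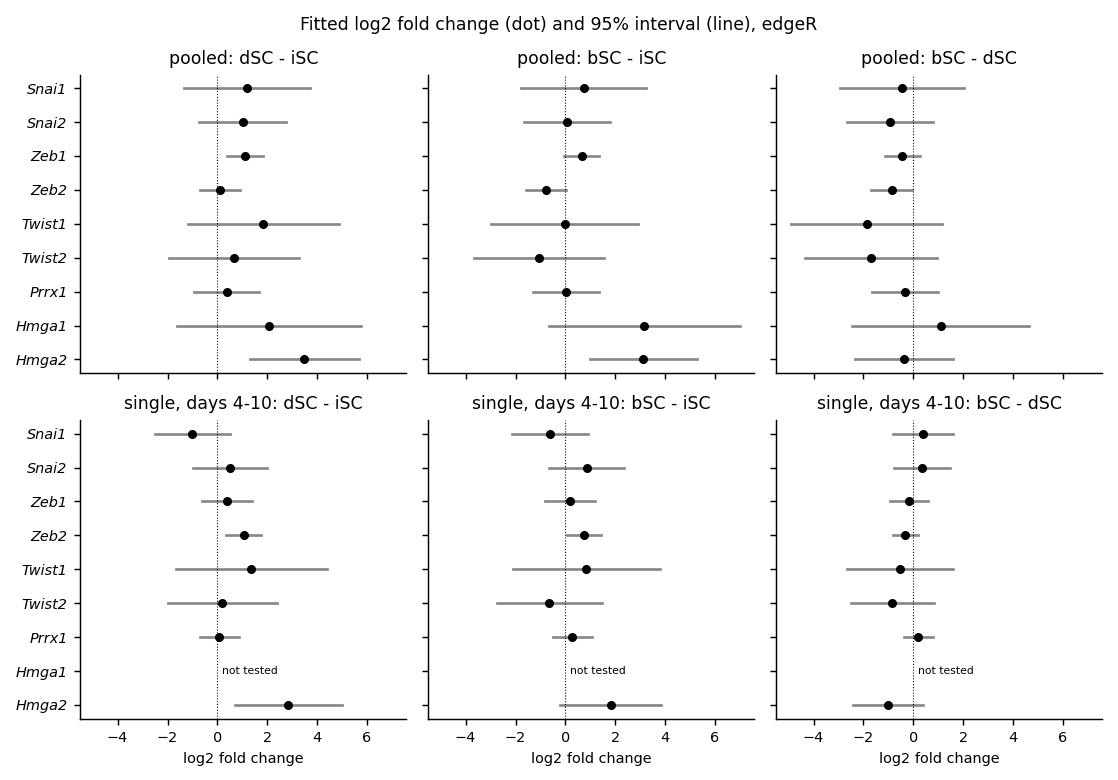
Fitted log2 fold changes (horizontal axes, dots) with 95% intervals (lines) from edgeR for the 9 genes (vertical axes) in 3 pooled and 3 single-nerve comparisons. The intervals of Hmga2 lie above 0 for pooled dSCs, pooled bSCs and single-nerve dSCs against iSCs, and those of Zeb1 (pooled dSCs) and Zeb2 (single-nerve dSCs and bSCs) likewise, before adjustment for the number of genes tested.

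Bridge and distal SCs of the same animal could be compared in 10 pairs, or 9 without animal 19. Hmga2 was lower in bSCs in 7 of the 9, by a mean of 1.99 ± 2.13 on the log2 scale (SD), with values from -5.29 to 0.50. At least 7 of 9 pairs were lower for 14.5% of all genes. Zeb2 was also lower in 7 of 9 pairs (mean difference -0.53 ± 0.80) and so was Zeb1 (-0.17 ± 0.81), whereas Snai1, Snai2 and Prrx1 were higher in 6 of 9. At least 7 of 9 pairs were higher for 13.4% of all genes, and the share for 6 of 9 was not counted. The group fit gave -1.02 ± 0.69 for Hmga2, -0.32 ± 0.25 for Zeb2 and 0.20 ± 0.29 for Prrx1, none called. With the animal as a block, in a fit that called 1.46% of genes, the values were -1.58 (adjusted p = 0.306), -0.43 (adjusted p = 0.499) and 0.14 (adjusted p = 0.898). The block turned Snai1 from 0.39 ± 0.59 to -0.59 and moved Twist1 from -0.52 ± 1.04 to -2.52, and neither was called.

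**Figure D5:**
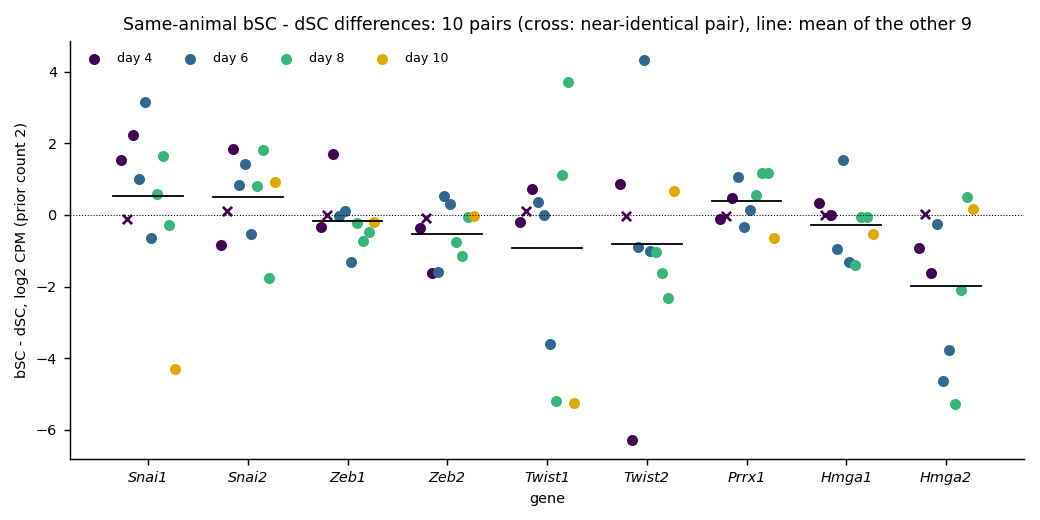
Difference between the bSC and dSC library of the same animal (vertical axis, log2 CPM with a prior count of 2) for each gene (horizontal axis) in 10 single-nerve pairs, coloured by day; the cross is the near-identical pair of animal 19 and the line the mean of the other 9. Hmga2 lay below 0 in 7 of those 9 pairs, with values down to -5.29.

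The genes whose time pattern was most like a member's were sought by Pearson's r of mean log2 CPM over the 11 single-nerve groups, among 13716 genes tested in both experiments. For Hmga2 these were Has1 (0.92), Cd14 (0.91) and Rgs1 (0.91), for Zeb2 Adrbk1 (0.95), Ptpn23 and Gramd1a, for Zeb1 Phldb1 (0.95), Zfp575 and Zer1, and for Snai2 Antxr2 (0.95), Plxdc2 and Slu7. For Snai1 they were Enpp4 (0.95), Hspb8 and Riok2, and for Prrx1 L3hypdh (0.93), Tmem229b and Trpv2. The highest r of Twist1 was 0.91, with Etaa1, and that of Twist2 was 0.92, with Mtmr1. Among the members themselves the highest r was 0.64, between Zeb1 and Zeb2, followed by 0.63 between Twist1 and Hmga2, and the lowest was -0.51, between Snai1 and Zeb1. With 11 points that share normalization and, in part, animals, these are descriptions only.

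The EMT factors are known to repress epithelial genes and to be expressed along with mesenchymal ones, and lists of both were counted. Of the 24 epithelial genes, 10 were tested in the pooled nerves, of which 2 fell and none rose in dSCs against iSCs, 4 fell and none rose in bSCs against iSCs, and 1 fell in bSCs against dSCs, with median log2 fold changes of -0.72, -1.28 and -0.44 beside -0.02, -0.16 and -0.07 for all genes. Cdh1, which encodes E-cadherin, was at 49.8 to 131 CPM in iSCs, at 0 to 0.147 CPM in dSCs and at 0 to 13.2 CPM in bSCs, and was called in dSCs (adjusted p = 0.00872) and bSCs (adjusted p = 0.0441) against iSCs, also with the block. Occludin, Ocln, a tight junction protein, had no reads in the 4 bSC libraries, against 3.46 to 17.6 CPM in iSCs and 0.149 to 33.2 CPM in dSCs. It was called between bSCs and dSCs (adjusted p = 0.0232), but not with the block (adjusted p = 0.0983). Cldn3 and Jup also fell in bSCs, and are named after their values were seen. With the block, Cdh1 was the only epithelial gene called in either injured region against iSCs. Of the 17 tested in the single nerves, 3 fell in dSCs and 5 in bSCs against iSCs over days 4 to 10, Cdh1 among them in both (adjusted p = 0.00857 and 0.033), and none rose. Without the near-identical libraries Cdh1 remained called in dSCs (adjusted p = 0.0229) but not in bSCs (adjusted p = 0.0554). Markers of perineurial cells, which share 2 genes with the epithelial list, fell alongside. Of 9 such markers 1 fell in pooled dSCs and 6 in pooled bSCs against iSCs (median -0.74 and -3.33), and 1 and 6 fell in single-nerve dSCs and bSCs over days 4 to 10 (median -1.77 and -3.53). Their summed level was 1234 to 3135 CPM in pooled iSCs, 900.4 to 1865 CPM in dSCs and 238 to 797 CPM in bSCs, where Ntn4 was at 0 throughout, and their part in the epithelial values was not tested. Of 11 myelin genes, 11 fell in pooled dSCs and 10 in pooled bSCs against iSCs (median -4.43 and -4.13). Over days 4 to 10 in the single nerves, 9 and 7 of the 11 fell (median -4.24 and -2.96). How the fall of Cdh1 related to that of the myelin genes was not tested.

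Of the 22 mesenchymal genes, all tested, 7 rose and 1 fell in pooled dSCs, 8 rose and none fell in pooled bSCs, and 5 rose in bSCs against dSCs. With the block 5 rose and none fell in dSCs, and 4 rose in bSCs, against iSCs. Their median log2 fold changes were 0.72, 0.94 and 0.59. Tnc, the matrix protein tenascin-C, was at 1.48 to 5.80 CPM in iSCs, 316 to 641.5 CPM in dSCs and 1341 to 4570 CPM in bSCs, a difference of 2.27 ± 0.45 between the injured regions (adjusted p = 0.0138). Tagln, an actin-binding protein of smooth muscle, and S100a4 were higher in bSCs than in dSCs by 2.38 ± 0.58 and 1.73 ± 0.47 (adjusted p = 0.032 and 0.0496). Tagln was at 97.9 to 351 CPM in iSCs, 31.0 to 72.75 CPM in dSCs and 82.1 to 517.5 CPM in bSCs, so that bSCs overlapped iSCs. With the block only Tnc of the 5 remained called between bSCs and dSCs (adjusted p = 0.0465). Vim, the intermediate filament vimentin, rose in dSCs (1.49 ± 0.34) and bSCs (1.07 ± 0.33), though with the block neither was called (adjusted p = 0.0778 and 0.107). Fn1, fibronectin, rose in dSCs (2.55 ± 0.54, adjusted p = 0.0172) and Cdh2, N-cadherin, fell there (by 2.14 on the log2 scale, adjusted p = 0.0204, and 0.139 with the block).

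Over days 4 to 10 in the single nerves, 7 of the 22 rose and 2 fell in dSCs and 9 rose and 2 fell in bSCs against iSCs. Tagln was among those that fell in both. Its mean was 510 CPM in iSCs, and its day means were 59.9 to 114.5 CPM in dSCs and 75.3 to 145 CPM in bSCs. Between bSCs and dSCs none of the 22 was called by edgeR, in a comparison with 16 called genes in all. With the animal as a block 1 of 22 was, Mmp2, which was lower in bSCs and is named after its value was seen. Tnc differed between these regions by 0.81 ± 0.44 (adjusted p = 0.64, and 0.0617 with the block).

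Of the 21 other EMT regulators, 19 were tested in the pooled nerves, and none was called in dSCs against iSCs or in bSCs against dSCs. In bSCs against iSCs Tcf3 rose and Id3 fell, and neither was called with the block. In the single nerves Id1 and Id3, inhibitors of helix-loop-helix factors such as TWIST, fell in dSCs by 2.55 and 2.10 and in bSCs by 1.84 and 1.91 on the log2 scale, and Foxq1 fell in bSCs. These were named after their values were seen. Sox9, a factor of the neural crest, was at 24.7 to 185 CPM in iSCs, 121 to 257 in dSCs and 8.77 to 83.6 in bSCs of the pooled nerves. The bSC and dSC libraries did not overlap, and their difference was not called by edgeR (-2.71 ± 0.76, adjusted p = 0.0542). DESeq2 called Sox9 lower in bSCs than in dSCs of the pooled nerves (adjusted p = 0.00277) and of the single nerves (adjusted p = 0.0355), where it called 14.1% and 3.76% of all genes. Sox2, a factor of immature SCs that ZEB2 is known to repress, was at 1.82 to 9.60 CPM in iSCs, 16.97 to 45.5 in dSCs and 0.224 to 13.2 in bSCs and was not called in any pooled comparison. Of the 19 ZEB co-repressors and ZEB2 targets, all tested, 1 rose in dSCs (Chd3) and 2 in bSCs (Mbd3 and Smarca4, neither with the block) against iSCs in the pooled nerves, 1 rose in single-nerve bSCs (Ednrb, not without the near-identical libraries), and none was called between bSCs and dSCs, these 4 again named after their values were seen.

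Of the 20 other high mobility group and HMGA2/let-7 genes, 16 were tested in the pooled nerves, and 2 rose in dSCs, 4 rose in bSCs and 3 were higher in bSCs than in dSCs. The 3 were the nucleosome-binding proteins Hmgn1 (480 to 687 CPM in bSCs, 149 to 239 in dSCs, 1.43 ± 0.21, adjusted p = 0.0041) and Hmgn2 (987 to 1107 against 384 to 599 CPM, 1.06 ± 0.20, adjusted p = 0.0107), which remained called with the block, and the DNA-bending Hmgb3 (1.99 ± 0.50, adjusted p = 0.0352), which did not (adjusted p = 0.0736). None of the 3 was called between bSCs and dSCs in the single nerves. Cycling-cell markers moved with them in the pooled nerves, where 11 of 12 rose in dSCs, 11 of 12 in bSCs and 3 were higher in bSCs than in dSCs, and their part was not tested. Lin28b, which blocks let-7 maturation, had 2 counts in 1 pooled dSC library and none elsewhere in the mouse libraries. Igf2bp2, an RNA-binding protein known as an HMGA2 target, was at 9.15 to 30.5 CPM in pooled iSCs, 13.6 to 47.4 in dSCs and 0.0731 to 35.4 in bSCs, with no call. In single nerves its mean was 2.23 ± 2.89 CPM in iSCs (SD, n = 5) and 34.9 ± 4.49 and 24.5 ± 9.33 CPM in dSCs at days 2 and 4 (n = 3 each). The log2 fold change of Igf2bp2 there was 3.27 ± 1.18 for dSCs of days 1 and 2, 3.06 ± 1.11 for dSCs of days 4 to 10 and 2.82 ± 1.096 for bSCs against iSCs. It was not called by edgeR (adjusted p = 0.274, 0.0996 and 0.0997), and DESeq2 called all 3 (adjusted p = 0.0326, 0.00818 and 0.0165), where it called 3.61%, 10.6% and 13.5% of all genes. Igf2bp1, at 0 in 3 of the 5 single iSC libraries and at most 2.22 CPM in the others, was called lower in both injured regions of the single nerves over days 4 to 10 (adjusted p = 0.0283 and 0.0281). Without the near-identical libraries the call of Igf2bp1 in dSCs was lost (adjusted p = 0.0541, and 0.0498 in bSCs), and DESeq2 gave no adjusted p in dSCs and 0.518 in bSCs. Myc was higher in all bSC than in all dSC libraries of the pooled nerves, at 41.5 to 82.2 against 12.9 to 32.1 CPM, without a call by edgeR (1.36 ± 0.38, adjusted p = 0.0531), while DESeq2 called it (adjusted p = 0.00543).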

How the data were processed

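Reads of 47 mouse libraries had been aligned by the authors with TopHat2 2.0.11 to mm9, assigned to genes with HTSeq, and deposited as raw counts per gene, with neither normalization nor a filter. Lanes of a library were summed here (chi-square per degree of freedom between lanes at most 1.316). HTSeq's categories without a gene and the spike-ins were left out. Libraries were grouped by their labels.

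Counts were tested in R 4.3.3 with edgeR 4.0.16 (TMM, its filter on low counts, the quasi-likelihood test, Benjamini-Hochberg adjustment over all genes tested), in 1 fit per experiment, and called at an adjusted p under 0.05. The study's methods used DESeq2 (1.42.0 here), which was run as an alternative. The study's single-nerve filter, at least 100 counts in 85% of libraries, was also an alternative because low transcription factors fail it. Others were DESeq2 size factors, no filter, only the groups compared, a lane covariate (number of lane files), a replicate block and leaving out each library. The alternatives without the near-identical day-4 libraries were added after seeing the data. Simulated counts with 200 genes changed 4-fold gave 46 recovered and no false call for pooled bSCs against dSCs (13751 genes), and 94 and 6 in the single nerves (15519 genes).

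Same-numbered pooled libraries, and bSC and dSC libraries of a single nerve, share an animal number in the labels. Deviations from the group means correlated on average at 0.157 within single-nerve pairs (-0.0624 to 0.677; 0.09874 on average without the near-identical pair) and -0.0143 within pools. The bSC library of day 10 replicate 0 entered no pair, since its title and its animal label point to different dSC libraries. The labels of pooled libraries number pools, not mice, while those of single-nerve libraries number animals. In both experiments p-values measure the spread between these libraries.

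The members and gene lists were chosen with earlier results of these data known. Named beside the members were, per list and direction, at most 3 genes with the largest change among those called between bSCs and dSCs, and Cdh1, Cdh2, Vim, Fn1, Sox9, Sox2, Myc, Lin28b, Igf2bp1 and Igf2bp2. Exact matches of transcript windows were sought in NCBIM37. Floors cover counting error only, since PCR copies are not independent molecules, while the 95% intervals of fold changes rest on the spread between libraries. Rat libraries were not used here. A few items are not reported here.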

Additional observations from a re-analysis of the deposited data

Results flagged for a closer look

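For each member, the highest and the lowest library of every group with at least 4 were compared with their nearest neighbour by Dixon's ratio, the gap over the whole range. The ratio passed its 95% critical value in 2 of 36 such groups, where chance gives about 1 in 20. The bSC library of pool 5 held 120.6 CPM of Zeb1, against 54.7 to 65.5 CPM in the other 3. The single intact nerve of replicate 1, with 10042 genes detected the lowest in that number, held 9.32 CPM of Hmga2, against 0.0528 to 1.78 CPM in the other 4.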

How the results depend on the processing

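Of 1136 values of members under another setting, against 59 as reported, 1088 kept their sign and their side of the threshold, 15 passed it and 33 changed sign, none of which was called. Reversals outside the fits that left out a library were, for pooled dSCs against iSCs, Zeb2 with the lane covariate (-0.125), and, for pooled bSCs against iSCs, Twist1 with the replicate block (0.201) and the lane covariate (0.073) and Prrx1 with DESeq2 (-0.006) and its size factors (-0.005). For single-nerve bSCs against dSCs, Snai1 reversed with the replicate block (-0.589), also with the day-10 library paired by title (-0.13) and without the near-identical libraries (-0.432). The cause was not tested.

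Reversals on leaving out a library are given as the range over all such fits. For pooled dSCs against iSCs it was -0.24 to 0.372 for Zeb2. For pooled bSCs against iSCs it was -0.24 to 1.909 for Snai1, -0.663 to 0.978 for Snai2, -0.301 to 0.391 for Twist1 and -0.306 to 0.44 for Prrx1. For pooled bSCs against dSCs it was -1.475 to 0.068 for Snai1 and -0.667 to 0.286 for Hmga2. In the single nerves it was -0.094 to 0.523 for Zeb1 and -2.926 to 0.097 for Twist1 (dSCs of days 1 and 2 against iSCs), -0.126 to 0.416 for Twist2 and -0.06 to 0.226 for Prrx1 (dSCs of days 4 to 10 against iSCs), -0.006 to 0.376 for Zeb1 and -0.53 to 1.364 for Twist1 (bSCs against iSCs), and -0.047 to 0.762 for Snai1 and -0.024 to 0.465 for Snai2 (bSCs against dSCs).

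Counts of called genes moved by over 1.5 times as follows. In the order pooled dSCs against iSCs, bSCs against iSCs and bSCs against dSCs, edgeR called 732, 2022 and 746 genes, DESeq2 1393, 3114 and 1939, the replicate block 287, 968 and 236, and a fit of only the groups compared 485 for the last. In the single nerves, dSCs of days 1 and 2 against iSCs gave 105 genes, 560 with DESeq2 and 2 with only the groups compared. Over days 4 to 10, dSCs against iSCs gave 826, 1650 with DESeq2, and bSCs against iSCs gave 1449, 745 with the study's filter and 541 with only the groups compared. Single-nerve bSCs against dSCs gave 16, then 583 with DESeq2, 25 with its size factors, 30 without a filter, 8 with the study's filter, 236 with the replicate block, 69 and 182 with the block when the day-10 library was paired by animal label or by title, and 177 with the block without the near-identical libraries. The dependence on the day gave 0, 6 with DESeq2 and 1 and 4 with the block under those 2 pairings. Differences among days gave 10, 247 with DESeq2, 20 with the study's filter and 6 without the near-identical libraries. Leaving out 1 library gave 310 to 1007, 1318 to 2082 and 325 to 800 genes in the pooled nerves, and 30 to 88, 416 to 835, 1019 to 1366, 3 to 97, 0 to 1 and 3 to 9 in the single nerves, in the order above. No paired fit was possible between injured and intact single nerves because they do not share animals in the labels. The block changed no member's call. Hmga1 rested on 45 counts or fewer per single-nerve library.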
